A study of Mus musculus with 25 samples.

Results

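The genes described here are 10 imprinted genes of 5 mouse loci, Dlk1, Meg3, Rtl1, Rian, Mirg and Dio3 on chromosome 12, Peg3 on chromosome 7, Mest on chromosome 6, Plagl1 on chromosome 10 and Grb10 on chromosome 11, out of 26182 genes with a curated RefSeq transcript. They were taken by name and located on GRCm38 (mm10). Every peak of Spin1 and of H3K4me3 was then read at the transcription start sites (TSS±1 kb), inside the genes, between the genes of a cluster and up to 50 kb on each side. Spin1 is a chromatin protein that binds trimethylated lysine 4 of histone H3 (H3K4me3), a mark of active and CpG-rich promoters. Both were mapped by ChIP-seq in primary myoblasts, muscle precursor cells grown for a few days from the limb muscles of C57BL/6 mice (substrain N in the methods of the study) at postnatal day 10. The labels and the methods give no gene deletion, treatment or transgene for these cells. Fibroblasts were reduced by preplating, so that the cultures are enriched for myoblasts and may still hold other cells. The other samples of the series, 22 RNA-seq libraries and the input, were not analysed here.

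Each antibody gave 1 library, so there was no replicate check and no test could be made for any difference between genes. The deposited value of a peak is its MACS score, which is −log10 of the p-value over input multiplied by 10. Scores accumulate at 3100, where they no longer rank peaks. Read counts were not used, and the depth is unknown. A missing peak therefore says that none passed the threshold in that library, not that the protein is absent. Promoter peaks of both kinds were present at 7 of 7 myoblast markers, among them Myod1, Pax7 and Myog. Of the fibroblast markers, 5 of 5 had H3K4me3 and 2 of 5, Pdgfra and Col1a1, had Spin1. Spin1 was found at 0 of 4 endothelial, 0 of 4 leukocyte, 0 of 3 adipocyte and 1 of 4 neuronal markers, and H3K4me3 at 2 of 4, 1 of 4, 0 of 3 and 4 of 4. How much chromatin of other cells contributed to the peaks was not tested.

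Imprinted genes are transcribed from the maternal or the paternal copy only, according to DNA methylation that was laid down in the germ line at control regions of the cluster. On the copy without methylation, such a region often acts as a CpG-rich promoter with H3K4me3. The zinc finger protein ZFP57 binds the methylated copy at the letters TGCCGC and keeps it methylated in the early embryo. Peaks of inbred mice hold no information on the parental copy, so a peak here is the sum of both copies, and which copy carried it cannot be told apart. Several of these genes are known in muscle and growth. Dlk1 and Rtl1 lie in the region behind the overgrown muscle of callipyge sheep, and Igf2, H19, Grb10 and Plagl1 belong to the imprinted genes that control body growth.

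The promoters fell into 3 states. Both Spin1 and H3K4me3 were present at 5 genes, Meg3, Peg3, Mest, Plagl1 and Grb10. H3K4me3 without Spin1 was present at Dlk1 and Dio3. No peak of either kind was found within 1 kb of a start of Rtl1, Rian or Mirg. In all, 5 of 10 genes had Spin1, where 50.7% of all curated genes had it, and 7 of 10 had H3K4me3, where the share of all genes was 61.9%. Both peaks were present at 5 of 10 genes and at 50.6% of all genes. Over the 10 genes, occupancy was thus close to the background, and the genes differed by locus. On chromosome 12, 1 of 6 genes, Meg3, had Spin1 at an annotated start. This was 0 of 6 when the peak had to lie from 1 kb upstream to 0.1 kb downstream, to have its centre in TSS±1 kb or to be among the 50% with the highest score. At the other 4 loci, 4 of 4 had it. Of the same stricter rules, the first kept 4 of 4 there. The rule on the centre ended the call at Grb10, and the rule on the score ended that at Mest. Of all genes, 49.7, 46.5 and 38.1% had Spin1 under these rules, in the order given. Rian and Mirg are known as parts of a transcript that continues from Meg3, so their annotated starts may not be separate promoters. The counts by locus are therefore counts of annotated genes.

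The background depends on the type of gene. Among the 7 protein-coding members, 4 had Spin1 and 6 had H3K4me3, where 56.7% and 68.0% of 21000 protein-coding genes had them. Among the 3 long non-coding RNAs, only Meg3 had the peaks, both of them, where 29.9% of 3319 long non-coding RNA genes had Spin1 and 40.9% had H3K4me3. Of the 6 genes known to be expressed from the paternal copy (Dlk1, Rtl1, Dio3, Peg3, Mest and Plagl1), 3 had Spin1 and 5 had H3K4me3. Of the 4 known to be expressed from the maternal copy in most tissues (Meg3, Rian, Mirg and Grb10), 2 had both.

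**Figure D1:**
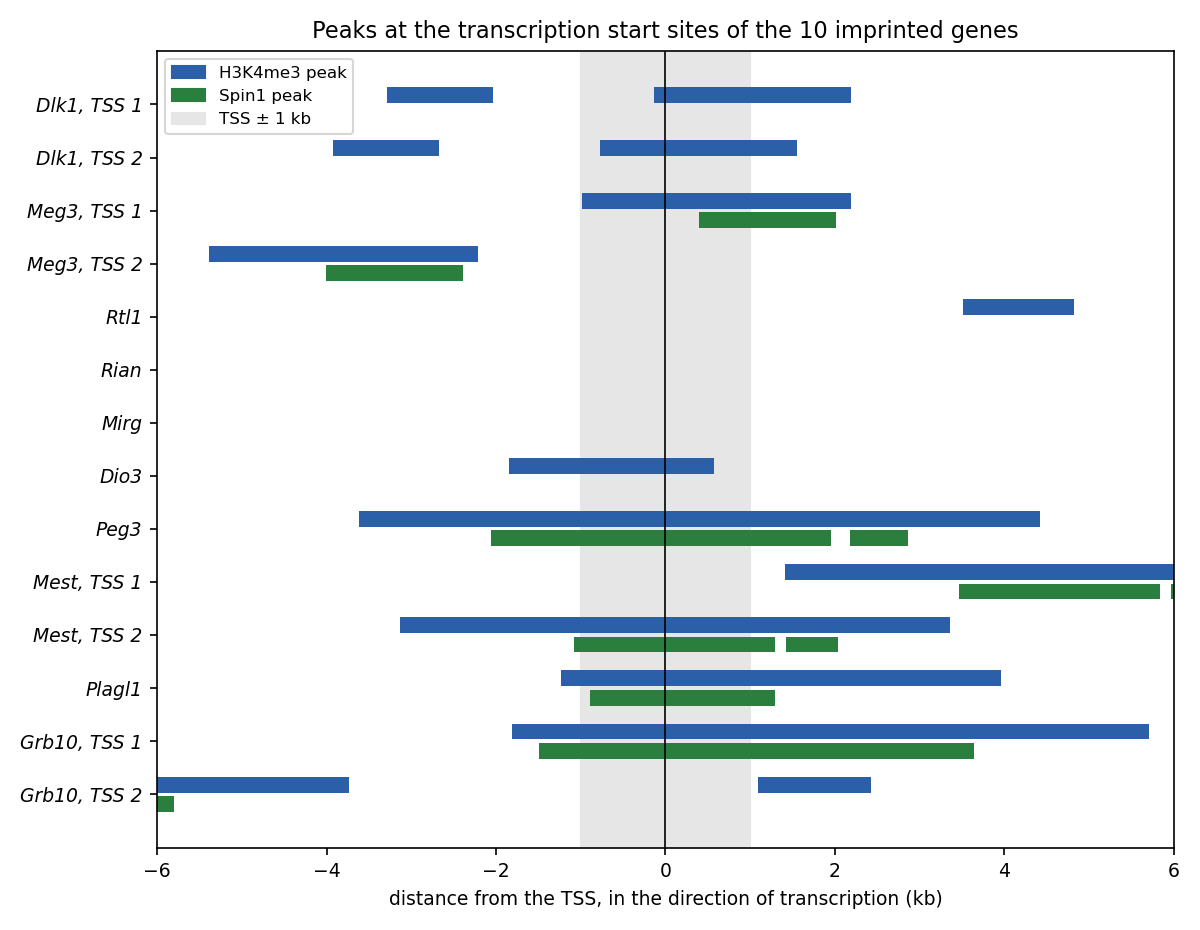
Peaks of H3K4me3 (blue) and Spin1 (green) at the start sites of the 10 genes, by distance from the TSS in kb in the direction of transcription. The grey band is TSS±1 kb, bars are cut at 6 kb, and the start sites of Mest that lie 3 bp apart share the row TSS 2. Spin1 covers the start site of Peg3, Mest, Plagl1 and Grb10, begins downstream of that of Meg3, and has no bar at Dlk1 and Dio3.

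The sequences just upstream of 6 starts are examples of promoters in these states, chosen after their CpG counts were seen, with every CpG in capitals. Each is the 250 bases before the TSS, 5′ to 3′ on the strand of the gene, from RefSeq on GRCm38.
Grb10, chr11:12037421-12037670, minus strand: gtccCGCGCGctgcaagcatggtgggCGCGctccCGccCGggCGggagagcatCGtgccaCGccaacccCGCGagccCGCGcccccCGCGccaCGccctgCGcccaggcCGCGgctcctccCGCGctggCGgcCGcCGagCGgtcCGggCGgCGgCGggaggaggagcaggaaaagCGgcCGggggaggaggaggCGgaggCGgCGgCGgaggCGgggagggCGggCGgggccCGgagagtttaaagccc
Plagl1, chr10:13090582-13090831, plus strand: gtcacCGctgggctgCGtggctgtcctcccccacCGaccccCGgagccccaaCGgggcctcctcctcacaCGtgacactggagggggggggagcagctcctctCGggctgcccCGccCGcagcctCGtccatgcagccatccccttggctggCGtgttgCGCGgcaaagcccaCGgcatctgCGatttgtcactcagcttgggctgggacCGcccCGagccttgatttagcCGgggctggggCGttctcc
Dio3, chr12:110278980-110279229, plus strand: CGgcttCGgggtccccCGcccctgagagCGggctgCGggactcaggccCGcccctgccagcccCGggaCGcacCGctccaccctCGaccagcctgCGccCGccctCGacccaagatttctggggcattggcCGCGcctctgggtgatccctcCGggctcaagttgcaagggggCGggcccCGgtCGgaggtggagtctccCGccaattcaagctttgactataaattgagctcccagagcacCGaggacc
Meg3, chr12:109540746-109540995, plus strand: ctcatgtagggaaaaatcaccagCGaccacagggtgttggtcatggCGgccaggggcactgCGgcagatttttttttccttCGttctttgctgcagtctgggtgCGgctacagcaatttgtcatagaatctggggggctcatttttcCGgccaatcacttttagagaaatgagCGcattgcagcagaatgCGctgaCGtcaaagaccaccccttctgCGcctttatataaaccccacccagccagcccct
Rian, chr12:109603695-109603944, plus strand: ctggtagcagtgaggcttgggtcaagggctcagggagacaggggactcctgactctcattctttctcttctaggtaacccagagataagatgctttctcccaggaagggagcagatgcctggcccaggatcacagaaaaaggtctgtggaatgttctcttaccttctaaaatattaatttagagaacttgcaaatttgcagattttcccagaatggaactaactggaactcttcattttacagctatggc
Mirg, chr12:109734731-109734980, plus strand: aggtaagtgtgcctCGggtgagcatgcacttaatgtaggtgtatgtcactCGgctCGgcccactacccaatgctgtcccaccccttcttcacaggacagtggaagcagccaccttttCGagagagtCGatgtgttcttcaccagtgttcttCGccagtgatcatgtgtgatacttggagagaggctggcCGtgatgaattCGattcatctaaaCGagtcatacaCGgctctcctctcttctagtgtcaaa
Grb10 and Plagl1, which had both peaks, held 40 and 19 CpGs in this stretch. Dio3, which had H3K4me3 without Spin1, held 21. Meg3, with both peaks, held 10, and so did Mirg, with neither, while Rian, also with neither, held 0. Of those not printed, Peg3, with both peaks, held 8, Mest at 30738050, with both, held 14, and the first start of Dlk1, with H3K4me3 only, held 8. The CpG number in these 250 bases thus did not sort the states.

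CpG content over the wider TSS±1 kb separated the genes without any peak from the others, but not the genes with Spin1 from those without. The ratio of observed to expected CpGs in TSS±1 kb, taken as the highest over the starts of a gene, was 0.10 at Rian, 0.21 at Mirg and 0.22 at Rtl1. It was 0.51 at Meg3, 0.65 at Peg3, 0.71 at Dlk1, 0.74 at Mest, 0.75 at Plagl1, 0.89 at Dio3 and 0.99 at Grb10. The 3 genes without a peak thus had the 3 lowest ratios, and the median over all TSS windows was 0.44. Of all genes with a ratio from 0.2 to 0.3, 10.6% had Spin1 and 22.2% had H3K4me3, and below 0.1 Spin1 was present at 0.390%. From 0.5 to 0.6, where Meg3 lies, 81.2% of genes had Spin1. From 0.7 to 0.8, where Dlk1 lies beside Mest and Plagl1, 92.9% had Spin1, and from 0.8 to 0.9, where Dio3 lies, 95.4% had it. Dlk1 and Dio3 therefore belong to the small share of genes with CpG-rich promoters that had no Spin1 peak, while the other 8 genes were on the side of the larger share for their CpG content.

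**Figure D2:**
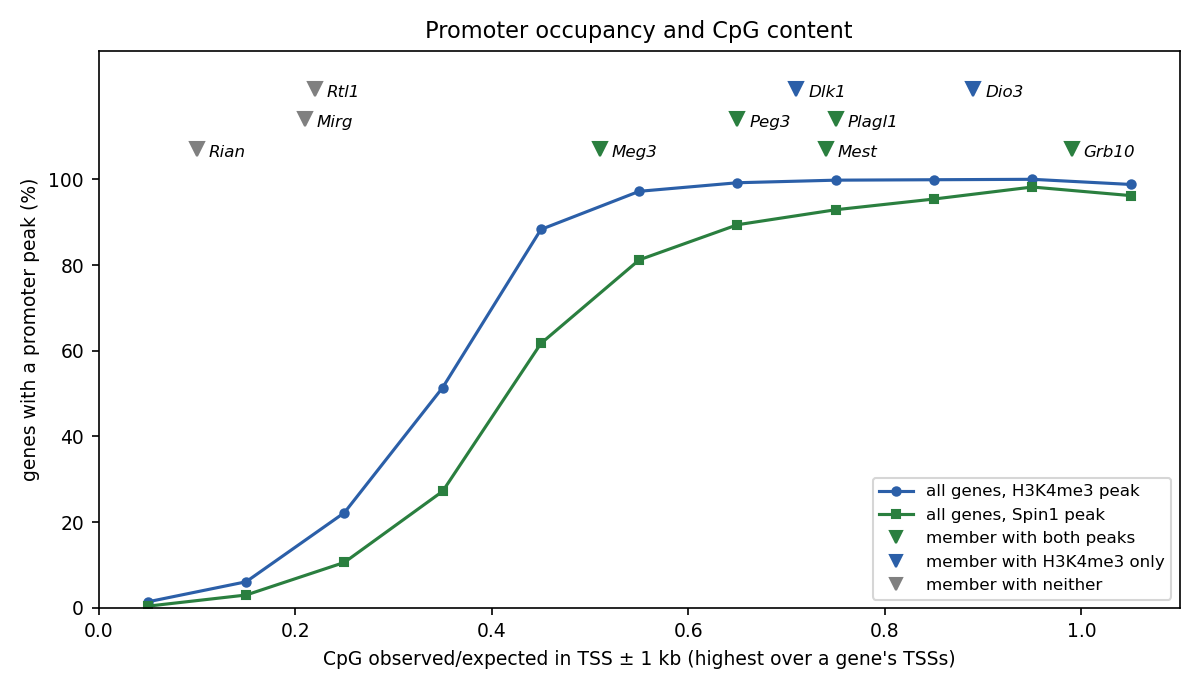
Share of all genes with a promoter peak (y axis, percent) by the ratio of observed to expected CpGs in TSS±1 kb (x axis), in steps of 0.1 for H3K4me3 (blue) and Spin1 (green). Triangles above the curves mark the ratios of the 10 genes. The grey triangles of Rian, Mirg and Rtl1 lie at 0.10 to 0.22, and the blue triangles of Dlk1 and Dio3, with H3K4me3 only, lie among the green ones of genes with both peaks.

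Dlk1 encodes a transmembrane protein with EGF-like repeats that inhibits the differentiation of preadipocytes and is made by muscle precursors. The gene (chr12:109452823-109463336, plus strand) has a start for a non-coding transcript at 109452823 and a start for 4 coding transcripts at 109453455. A single H3K4me3 peak of 2331 bp with a score of 3100 (chr12:109452684-109455014) covered both, from 771 bp upstream to 1559 bp downstream of the coding start. No Spin1 peak reached it. Another H3K4me3 peak of 1251 bp (chr12:109449536-109450786, score 755.50) ended 2037 bp upstream of the first start. It had no Spin1 either.

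Dio3 encodes the deiodinase that inactivates thyroid hormone, and its single exon (chr12:110279230-110281097, plus strand) lies at the far end of the cluster. Its H3K4me3 peak of 2425 bp with a score of 3100 (chr12:110277380-110279804) ran from 1850 bp upstream to 574 bp downstream of the start. It also covered the start of the antisense transcript Dio3os at 110278068 and the hairpin of the microRNA Mir1247. No Spin1 peak was present at any of them. Among genes with a promoter H3K4me3 peak that reached 3100, 91.0% had Spin1. Among those whose widest such peak measured from 2000 to below 3000 bp, as at Dlk1 and Dio3, 87.2% had it (95% Wilson interval from 86.2 to 88.2%, counting error only). These width classes were chosen after the values were seen. Dlk1 and Dio3 were thus outside the larger share of genes with H3K4me3 that reached 3100 and was of like width. Scores at 3100 no longer rank peaks, so the genes compared may differ in the strength of H3K4me3.

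Meg3 is a maternally expressed long non-coding RNA gene (chr12:109540996-109571729, plus strand), and it had the only Spin1 peak in TSS±1 kb in the cluster, a call that these stricter rules end. H3K4me3 (chr12:109540011-109543183, 3173 bp, score 3100) reached from 985 bp upstream to 2187 bp downstream of the first start. The Spin1 peak (chr12:109541393-109543013) was 1621 bp wide with a score of 493.09, and 15.9% of all Spin1 promoter peaks had a lower score. It began 397 bp downstream of the start and lay in an intron of the curated transcripts, in the downstream part of the H3K4me3 peak, of which it covered 51.1%. In this position Meg3 differed from most occupied genes, since 95.6% of genes with a promoter Spin1 peak had a TSS inside that peak. A shorter Meg3 transcript starts at 109545398, and no peak of either kind lay within 1 kb of it.

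Rtl1, Rian and Mirg lie downstream of Meg3. Rtl1, a gene derived from a retrotransposon that is needed in the placenta and in fetal muscle, runs against the others (chr12:109589193-109600330, minus strand). Rian (chr12:109603945-109661716) hosts small nucleolar RNAs, and Mirg (chr12:109734981-109749458) hosts microRNAs. They are known as parts of a maternal transcript that continues from Meg3. No Spin1 peak was called between the end of the Meg3 peak and a peak 544.1 kb further on, which spans all 3 genes. The only H3K4me3 peak inside them lay in an intron of Rtl1 (chr12:109595505-109596820, 1316 bp, score 333.81), 3510 bp downstream of the Rtl1 start and 108 bp from the hairpin of Mir3071. It had no Spin1. The window of the cluster holds 61 annotated microRNA genes and 7 small nucleolar RNA genes. Hairpins under a Spin1 peak numbered 0 of both kinds, and Mir1247 was the only 1 of 61 under an H3K4me3 peak. Spin1 peaks covered 0.247% of the window and H3K4me3 peaks 1.90%, so few hairpins would lie under a peak by coverage alone.

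Between the genes, the cluster held further H3K4me3 peaks with low scores. In its window (chr12:109402823-110331097) there were 14 H3K4me3 peaks, 3 at promoters, 1 in a gene and 10 between genes, with scores from 52.1 to 3100. Spin1 peaks numbered 2, at Meg3 and at an intergenic place 70.3 kb from the nearest start, that of 3110009F21Rik (chr12:110087079-110087751, 673 bp, score 138.63). The latter overlapped an H3K4me3 peak of 798 bp with a score of 135.46. Spin1 peaks covered 0.247% of the window, against 1.01% of chromosome 12. For H3K4me3 the shares were 1.90% and 2.13%. The stretch without a Spin1 peak upstream of Meg3 measured 472.4 kb and includes Dlk1, and that on the far side of the intergenic peak measured 293.5 kb and includes Dio3.

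**Figure D3:**
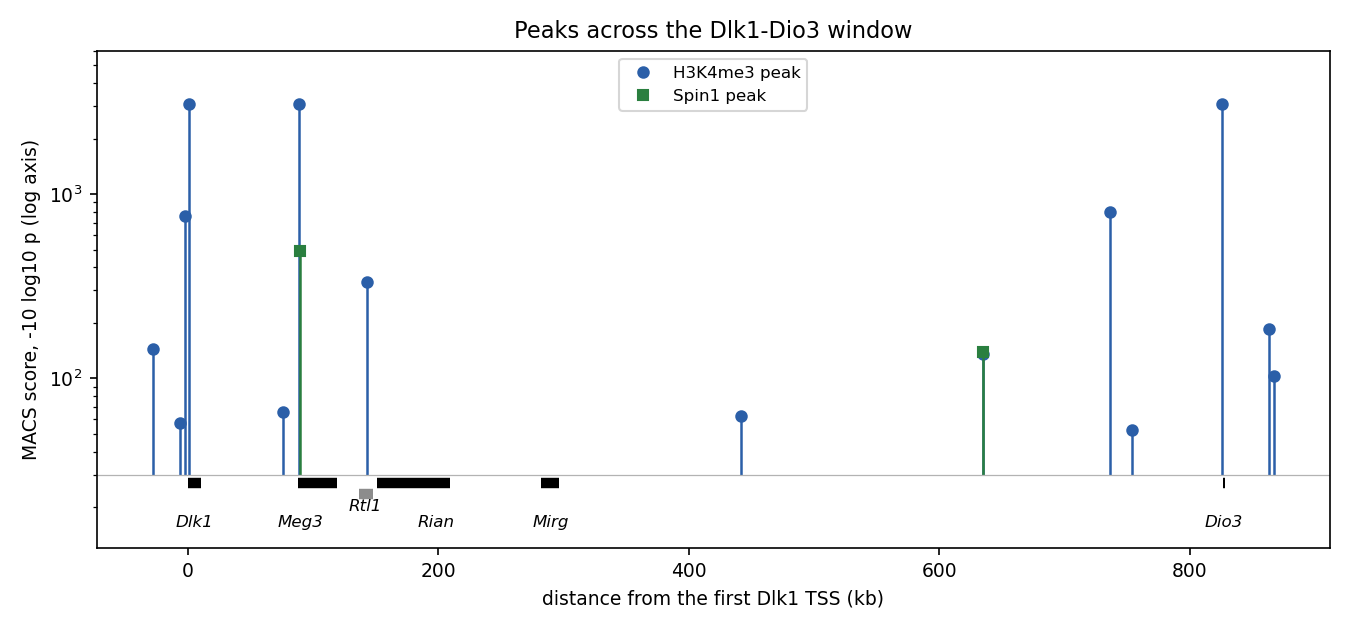
Peaks of H3K4me3 (blue circles) and Spin1 (green squares) in the window of the Dlk1-Dio3 cluster, by distance from the first Dlk1 start in kb (x axis) and MACS score (y axis, log scale). Bars below are the genes, black for the plus strand and grey for Rtl1 on the minus strand. H3K4me3 reaches 3100 at Dlk1, Meg3 and Dio3. Spin1 peaks stand at Meg3 and at an intergenic place only, and heights are not comparable between the libraries.

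The control region of this cluster is known to lie between Dlk1 and Meg3, and the files used here do not give its position. The only peak between the promoter peaks of Dlk1 and Meg3 was an H3K4me3 peak of 742 bp with a score of 65.30 (chr12:109528086-109528827), 12169 bp upstream of the first Meg3 start. It had no Spin1. The ZFP57 letters TGCCGC occurred 5 times in it, counted on both strands. In windows of 742 bp around the centres of all 30763 H3K4me3 peaks, 24.7% held TGCCGC at least once and 0.179% held it 5 times or more. All 5 lie in 200 bases, printed here with TGCCGC in capitals to show their spacing within a repeated pattern.
Between Dlk1 and Meg3, chr12:109528245-109528444, plus strand: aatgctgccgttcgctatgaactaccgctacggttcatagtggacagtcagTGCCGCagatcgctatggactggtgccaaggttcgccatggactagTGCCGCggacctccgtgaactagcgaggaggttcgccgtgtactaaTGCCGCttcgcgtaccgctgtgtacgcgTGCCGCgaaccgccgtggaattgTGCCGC
A match is a run of letters and was not measured as binding.

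Peg3 (chr7:6705960-6730419, minus strand) encodes a zinc finger protein expressed from the paternal copy. Its start lies 164 bp from that of Usp29 on the other strand, and the peaks covered both starts, so their shares in the signal cannot be told apart. The Spin1 peak (chr7:6728467-6732480) was 4014 bp wide with a score of 2863.30, centred 54 bp upstream of the Peg3 start. It was wider than 92.7% of the Spin1 promoter peaks, whose median width was 2167 bp. H3K4me3 (chr7:6725998-6734034) spanned 8037 bp at a score of 3100, wider than 97.8% of the H3K4me3 promoter peaks, whose median was 3029 bp. A small Spin1 peak of 684 bp with a score of 118.58 lay in an intron (chr7:6727561-6728244), inside the same H3K4me3 peak.

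The H3K4me3 peak of Peg3 held a row of matches to AANATGGCG, the motif of the zinc finger protein YY1, which is known to bind this control region. There were 10 matches, from 822 to 3110 bp downstream of the Peg3 start and all in 1 orientation, on the plus strand. Windows of the same width around 31601 starts held at least 1 match in 13.5% of cases and 10 or more in 0.0127%, or 4 windows, of which 2 are those of Peg3 and Usp29 over this same row. Under Spin1 peaks lay 6 of the 10, 4 under the broad peak and 2 under the small one, and the other 4 lay outside Spin1. The Spin1 peaks covered 58.5% of this H3K4me3 peak, so the count is close to the covered share. The 4 under the broad peak are given with 10 bases on each side and the motif in capitals, so that their flanks can be compared.
Site 822 bp downstream, chr7:6729589-6729597: tccaccctccAAGATGGCGccaactgggt
Site 928 bp downstream, chr7:6729483-6729491: cggtcatttcAAGATGGCGccaagcgggc
Site 1531 bp downstream, chr7:6728880-6728888: ttggccaggaAAGATGGCGccaggatggg
Site 1672 bp downstream, chr7:6728739-6728747: tcagccagcaAAGATGGCGtcagggtagg
The coordinates are those of the capitals. Zim1, a maternally expressed neighbour (start at 6696432), had a Spin1 peak of 1722 bp at its promoter with a score of 391.13, a Spin1 peak of 1132 bp in an intron with 375.08, and an H3K4me3 peak of 4886 bp at 3100 that spanned both.

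Mest (chr6:30733506-30748466, plus strand) encodes an enzyme-like protein of the hydrolase fold family, expressed from the paternal copy. It has an upstream start at 30733506 and a pair of starts at 30738050 and 30738053. Only the pair had peaks. The Spin1 peak (chr6:30736974-30739347, 2374 bp, score 965.34) was centred 110 bp downstream of the start at 30738050. H3K4me3 (chr6:30734919-30741414, 6496 bp, score 3100) was wider than 94.7% of H3K4me3 promoter peaks. A small Spin1 peak of 623 bp with a score of 121.61 followed in an intron (chr6:30739468-30740090). Together the Spin1 peaks covered 46.1% of the H3K4me3 peak, which also contained the hairpin of Mir335. This intronic microRNA and Mir1247 at Dio3 are the only microRNAs of the 5 windows under a peak, and their mature forms are given from RefSeq with the seed, bases 2 to 8, in capitals.
miR-335-5p: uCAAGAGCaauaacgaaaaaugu
miR-335-3p: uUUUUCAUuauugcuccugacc
miR-1247-5p: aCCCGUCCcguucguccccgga
miR-1247-3p: cGGGAACGucgagacuggagc
The seeds differ. In the same window, Cep41, a neighbour on the other strand that encodes a centrosomal protein (start at 30693749), had a Spin1 peak of 1681 bp (chr6:30692411-30694091) and an H3K4me3 peak of 2177 bp at its promoter, both with a score of 3100. In the Mest Spin1 peak TGCCGC occurred 12 times, and 0.0127% of windows of that width around 31601 starts held as many, or 4 windows, of which 2 are at Mest itself.

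Plagl1 (chr10:13090832-13131694, plus strand) encodes a zinc finger transcription factor that holds back proliferation. Its promoter is shared with the non-coding RNA Hymai, which starts at 13090845, and the peaks covered both. Spin1 (chr10:13089940-13092122) was 2183 bp wide with a score of 1252.45, close to the median width of Spin1 promoter peaks. H3K4me3 (chr10:13089594-13094796) was 5203 bp wide with a score of 3100 and extended further into the gene. Spin1 covered 42.0% of it, the lowest share of the 5 genes with both peaks. No other peak of either kind was called in the window.

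Grb10 (chr11:11930499-12037420, minus strand) encodes an adaptor protein that inhibits signalling by the receptors for insulin and IGF1. Its upstream start at 12037420 had the widest Spin1 peak of the 10 genes, 5136 bp at a score of 3100 (chr11:12033777-12038912), wider than 97.7% of Spin1 promoter peaks. H3K4me3 measured 7523 bp at 3100 (chr11:12031711-12039233), and Spin1 covered 68.3% of it. An alternative start at 12027971 had no peak within 1 kb. An H3K4me3 peak of 1326 bp began 1096 bp downstream of it (chr11:12025550-12026875, score 1239.83). Grb10 is known to be transcribed from the paternal copy in neurons, from a CpG-rich downstream promoter that is methylated on the maternal copy. The sequence of the intronic peak was CpG-rich, with a ratio of observed to expected CpGs of 0.99, and held TGCCGC 4 times, as 1.32% of windows of that width around H3K4me3 peaks did or exceeded. No Spin1 peak lay there. Of the 14 H3K4me3 peaks outside promoters in the 5 windows, 11 held TGCCGC 0 times and 1 held it 1 time, so that this peak and the peak between Dlk1 and Meg3 are those singled out for their counts. Neither peak had Spin1, as was usual for H3K4me3 peaks of such scores. Spin1 was present at 14.6% of all H3K4me3 peaks from 100 to 3100 and at 5.43% of those below 100. The 200 bases with the matches of the Grb10 peak are printed for comparison with the stretch between Dlk1 and Meg3.
Grb10 intron, chr11:12026053-12026252, minus strand: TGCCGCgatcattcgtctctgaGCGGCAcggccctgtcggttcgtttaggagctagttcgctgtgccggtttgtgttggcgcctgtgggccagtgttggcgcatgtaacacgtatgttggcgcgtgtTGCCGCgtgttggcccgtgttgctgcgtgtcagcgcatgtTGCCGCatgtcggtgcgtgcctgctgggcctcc

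At the 5 promoters with both peaks, the Spin1 peaks of Peg3 and Grb10 were broad and those of Meg3, Mest and Plagl1 were not. The share of the H3K4me3 peak under Spin1 ran from 42.0% at Plagl1 through 46.1% at Mest, 51.1% at Meg3 and 58.5% at Peg3 to 68.3% at Grb10. Over all 11449 promoter H3K4me3 peaks with Spin1 the median share was 65.8%, with quartiles of 55.5 and 75.2%. Only Grb10 was thus above the median, and Meg3, Mest and Plagl1 were below the lower quartile. The order of these 5 rests on single libraries, and whether neighbours in it differ could not be tested. Promoters with H3K4me3 peaks at 3100 and of 5000 bp or more, as at Peg3, Mest, Plagl1 and Grb10, had Spin1 in 96.5% of genes.

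**Figure D4:**
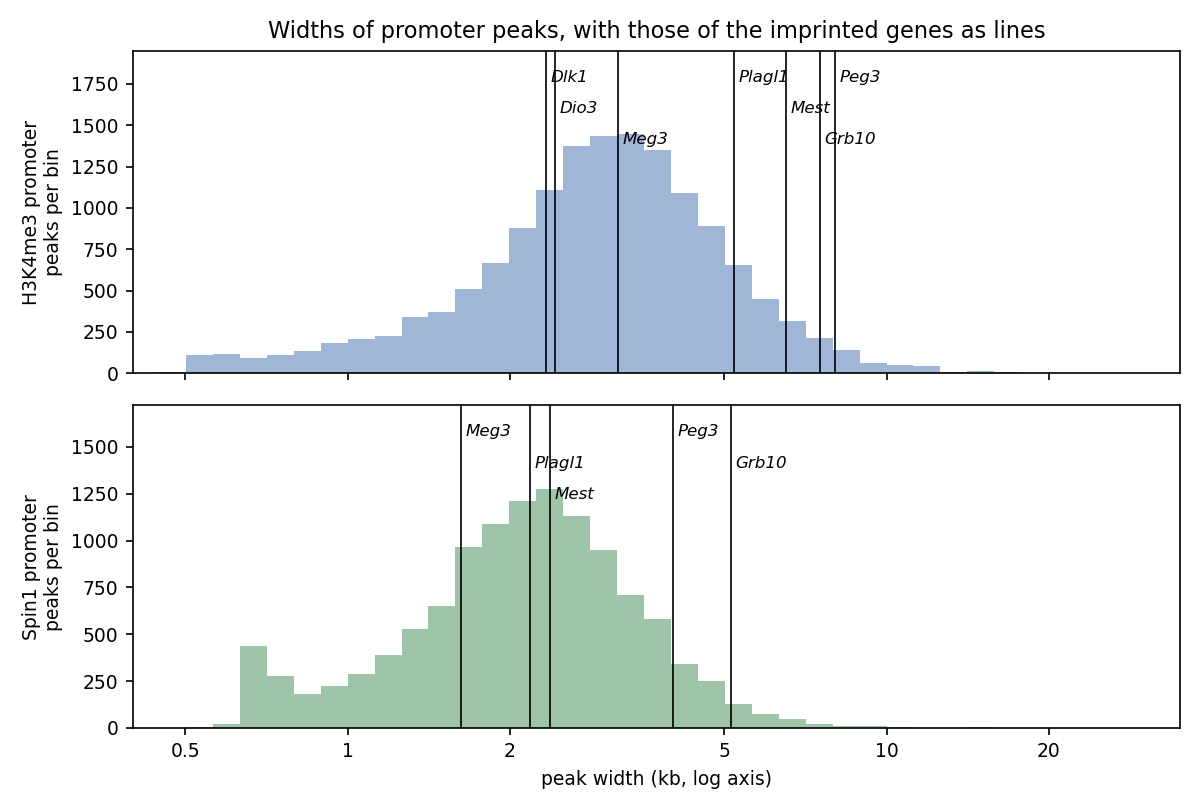
Widths of all promoter peaks (histograms, x axis in kb on a log scale, y axis in peaks per bin) of H3K4me3 above and Spin1 below, with the widths at the imprinted genes as lines. For H3K4me3 Peg3, Grb10, Mest and Plagl1 lie on the right at 8037, 7523, 6496 and 5203 bp, and Dlk1 and Dio3 lie left of the median of 3029 bp. For Spin1 Grb10 and Peg3 lie on the right, and Meg3, with 1621 bp, on the left.

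The letters TGCCGC were also counted in the other promoter peaks. The Spin1 peak of Peg3 held 8, that of Plagl1 6 and that of Grb10 5, as 0.203%, 0.544% and 2.73% of windows of the same widths around all starts did or exceeded. The Spin1 peak of Meg3 held 0, and 40.1% of windows of its width held at least 1. In TSS±1 kb, Dio3 held 3, Dlk1 and Meg3 1 each, and Rtl1, Rian and Mirg 0, and 42.6% of all TSS windows held at least 1. TGCCGC contains a CpG, and how far CpG content alone accounts for these counts was not tested. The core of the CTCF motif, CAGGGGGCG, occurred in 0 of the 5 Spin1 promoter peaks. Of windows of the same widths around all starts, 4.63 to 6.52% held it, so 0 of 5 is close to that share.

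Over the 5 windows together, with the neighbours Zim1 and Cep41, 11 of 11 Spin1 peaks shared at least 1 bp with H3K4me3, as did 91.3% of all 17106 Spin1 peaks. In the other direction, 8 of 23 H3K4me3 peaks, or 34.8% (18.8 to 55.1%), overlapped Spin1, against 46.5% of all 30763. Both shares hold for the rule of 1 bp, and a reciprocal overlap of 50% gave 17.4% in the windows. Where H3K4me3 reached 3100, 7 of 9 peaks had Spin1, against 88.7% of all such peaks, and the peaks without it were those of Dlk1 and Dio3. Without Zim1 and Cep41, 5 of 7 had it. Between 100 and 3100, 1 of 9 had Spin1 (14.6% of all), and below 100, 0 of 5 (5.43% of all). Spin1 peaks covered 6.07% of the Peg3 window, 4.07% of the Mest window, 2.48% of the Grb10 window and 1.55% of the Plagl1 window, each above its chromosome's share of 1.62, 1.12, 2.18 and 1.25%. Without the peaks of Cep41 the Mest share was 2.61%, and without those of Zim1 the Peg3 share was 3.77%. These windows are centred on genes, unlike the chromosome, so their shares are a description only. The Dlk1-Dio3 window, at 0.247%, was the only 1 of 5 below its chromosome.

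A list of 45 other imprinted genes, of which 44 matched a curated gene, was read in the same way. Spin1 was present at 31 of 44 and H3K4me3 at 41 of 44, against 50.7% and 61.9% of all genes. Several genes of the list share a promoter peak and do not count as independent. The list was not matched to all genes in CpG content, and most of it had a CpG ratio of 0.5 or more. From 0.5 to 0.6, 81.2% of all genes had Spin1 and 97.2% had H3K4me3, and in the higher steps both shares were larger. Usp29 and Zim1, described beside Peg3, are among the 31. At 10 of 44 genes H3K4me3 was present without Spin1, as at Dlk1 and Dio3 and at 11.3% of all genes. Where H3K4me3 reached 3100, 31 of 40 genes of the list had Spin1, against 91.0% of all such genes. The 10 genes with H3K4me3 and no Spin1 were Kcnq1, Phlda2, Ascl2, Magel2, Nnat, Slc22a3, Calcr, Rasgrf1, Nap1l5 and Dcn, of which Dcn is also a fibroblast marker of the list above. In 9 of these 10, H3K4me3 reached 3100, and at Kcnq1 it scored 395.0. No peak was found at Slc22a18, Ddc and Kcnk9. The growth regulator pair Igf2 and H19 had Spin1 with scores of 3100 and 2010.1, and the non-coding RNA Kcnq1ot1, which silences its cluster, had 3100. Lower Spin1 scores were found at the cell cycle inhibitor Cdkn1c with 131.0 and at Snrpn, a splicing protein gene, with 331.0.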

How the data were processed

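ChIP-seq of primary myoblasts gave 1 library for Spin1 and 1 for H3K4me3, each amplified by 12 PCR cycles. The authors mapped reads to mm10 with Bowtie2, called peaks against input with MACS 1.4.2, removed those above an FDR of 1% and deposited the position and score of each peak. Because the score depends on depth and width, it was used to describe peaks and as a threshold. Scores of both libraries stand side by side in places, and their sizes cannot be compared between libraries. The antibody label of the second sample writes the mark as H3K4me, while its title and the study's methods write H3K4me3.

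Peaks were compared with 45756 curated transcripts of RefSeq (GRCm38.p6), with 31647 distinct starts. A promoter was TSS±1 kb of any curated transcript, and an overlap of 1 bp counted. Motifs were exact matches on both strands, and CpG ratios were computed over the same windows. Intervals are 95% Wilson intervals. The members and lists were chosen with earlier results of these data known. Named were the 10 genes, genes of their windows with a promoter peak or on the imprinted list, and genes of that list. Cell type markers come from a separate list, and 3110009F21Rik and Mir3071 were named as the nearest genes of a peak after their positions were seen. The YY1 row, the matches in H3K4me3 peaks and the printed stretches were chosen after seeing the data. Overlap, motif and CpG functions were tested on simulated data. The alternatives were other promoter windows, score thresholds, transcripts, flanks and overlap rules. The scripts ran under Python 3.11.15 with pandas 2.3.3, NumPy 2.4.6, pysam 0.24.0, matplotlib 3.10.9 and SciPy 1.17.1. Of 25 samples 2 were used.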

Additional observations from a re-analysis of the deposited data

How the results depend on the processing

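Of 60 alternatives for the results that answer a comparison, 51 left the value within a factor of 1.5 of that reported and 9 moved it further. Such a factor still allows single calls to be lost. With the 50% of peaks with the highest score, for example, the other imprinted genes with Spin1 fell from 31 to 21. The share of all genes with Spin1 fell from 50.7 to 38.1% under this rule. With the 50% of peaks with the highest score in each library, 3 genes had Spin1 and the same 3 had both peaks (Meg3 and Mest were lost), 4 Spin1 and 9 H3K4me3 peaks remained in the windows, and Spin1 covered 0.859% of them. When the centre of the peak had to lie in TSS±1 kb, 3 genes had Spin1 (Peg3, Mest and Plagl1) and 2 had both. H3K4me3 was then present at 5 genes, as Plagl1 and Grb10 lost it. Of all genes, 46.5% had Spin1, 50.5% had H3K4me3 and 39.7% had both under this rule. With flanks of 100 kb, there were 19 Spin1 peaks. With a reciprocal overlap of 50%, 17.4% of the H3K4me3 peaks overlapped Spin1. With 1 kb upstream to 0.1 kb downstream, Meg3 lost Spin1, and with 1 TSS per gene Mest lost both peaks. Only TSS±2 kb and the addition of predicted transcripts could have given Spin1 to Dlk1, Dio3, Rtl1, Rian or Mirg, and neither did, while the other promoter alternatives narrow the rule and could only remove peaks. The background share of genes with Spin1 ran from 38.1 to 51.4%. No paired analysis was possible because each antibody has a single library. Depth is unknown, so weak peaks below the threshold of either library cannot be seen.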
